A study of Mus musculus with 26 samples.

Results

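The p53 pathway was followed with 32 genes in brown preadipocytes that carry different forms of the insulin receptor (IR). The list was drawn up by name and function, but with earlier results of these data known. It holds p53 itself (*Trp53*), 3 genes that feed back on p53, and 7 genes of growth arrest and growth restraint. The rest are 14 genes of cell death, 5 genes of DNA repair, and 2 metabolic enzymes. All 32 had an Ensembl identifier in the table and all 32 passed the filter on low values, a CPM (count scaled to the size of its library) above 0.5 in at least 4 of the 26 libraries. They are 32 of the 15402 genes tested, out of 52962 gene identifiers in the table.

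The cells came from brown fat of newborn mice with loxP sites in both the IR and the IGF1R gene. They were immortalized with SV40 T-antigen, and both receptor genes were then inactivated with Cre recombinase, which gave the DKO line. Every group shares this background, and SV40 large T-antigen is known to bind p53, which limits these cells as a model of the pathway. DKO cells were transduced with a retrovirus for human IR (B isoform), for the kinase-dead mutant K1030R, for ∆CT, which lacks the last 79 amino acids, or for JMO, which keeps 36 amino acids next to the membrane and loses the kinase domain and the C-terminus. An empty vector was also used in the study, but whether the DKO libraries came from cells with it is not given in the sources used here, so in comparisons with DKO cells the receptor cannot be told apart from transduction and selection. All cells were starved of serum for 6 h. The 9 groups are basal DKO cells and each of the 4 receptor lines both basal and after 15 min with 100 nM insulin, where basal means that no insulin was added. There were 3 libraries per group and 2 for ∆CT with insulin, and no insulin library of DKO cells was analysed here. Each receptor was studied in 1 cell line, and the labels do not say that replicates were separate cultures, so p-values measure the spread among these libraries and not among independently made lines.

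p53 is a transcription factor that is held at a low level by Mdm2 and is stabilized by DNA damage and other stress. It then raises genes that stop the cell cycle, repair DNA, or kill the cell, and also its own inhibitors, which closes a feedback loop. It acts largely through its protein level and modification, so the mRNA of its targets is often read in place of its own mRNA. In fat tissue the pathway is studied for its part in senescence and in the control of differentiation.

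Library totals ran from 17228982 to 24694828 expected counts, and the biological coefficient of variation between libraries of a group was 4.44%. Counts on the mouse *Insr* gene, to which reads of the human receptors could also be assigned, gave 22.3 to 24.8 CPM in DKO cells and 65.5 to 99.7 CPM in the receptor lines. *Igf1r* gave 24.7 to 28.6 CPM in DKO and 29.7 to 35.7 CPM in the receptor lines, all of which descend from cells with this gene inactivated. Such gene-level values cannot show whether the floxed exons were lost. Among the preadipocyte markers *Pdgfra*, *Pdgfrb*, *Cd34*, *Ly6a*, *Thy1*, and *Cebpb* passed the filter, while *Dlk1* and *Ebf2* did not. Of the markers of mature brown fat, *Ucp1* and *Adipoq* were at or near 0 in every library, as were *Adgre1* of macrophages, *Epcam* of epithelium, and *Myod1* of muscle. Other markers on the same lists were detected. *Fabp4* of mature fat lay between 0.444 and 4.76 CPM, *Cd68* of macrophages between 1.54 and 3.65, and *Des* of muscle between 1.76 and 4.75. *Krt8* of epithelium lay between 0 and 0.987 CPM, and *Pecam1* of endothelium between 6.82 and 17.4. In bulk RNA, fewer cells with a transcript and less of it per cell cannot be told apart.

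Promoter sequence is shown for 4 members, because p53 acts by binding DNA and because these members, picked with their values known, differed across the lines: *Cdkn1a*, *Ccng1*, and *Mdm2*, which were high in JMO cells, and *Sesn1*, which was not. Each window runs from 250 bases before to 50 bases after a RefSeq transcription start (GRCm38.p6), 5′ to 3′ on the strand of the gene. Capitals mark matches to the p53 half-site, the 10-base palindrome of the consensus element, which reads alike on both strands. The windows are chr17:29090729-29091028 (+ strand) for *Cdkn1a*, chr11:40755237-40755536 (- strand) for *Ccng1*, chr10:117710709-117711008 (- strand) for *Mdm2*, and chr10:41887189-41887488 (+ strand) for *Sesn1*.
Cdkn1a: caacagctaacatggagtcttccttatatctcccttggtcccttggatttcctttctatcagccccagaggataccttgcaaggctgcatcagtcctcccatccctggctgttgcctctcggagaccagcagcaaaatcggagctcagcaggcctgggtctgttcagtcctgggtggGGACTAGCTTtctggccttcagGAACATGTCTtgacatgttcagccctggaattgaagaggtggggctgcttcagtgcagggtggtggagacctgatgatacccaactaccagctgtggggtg
Ccng1: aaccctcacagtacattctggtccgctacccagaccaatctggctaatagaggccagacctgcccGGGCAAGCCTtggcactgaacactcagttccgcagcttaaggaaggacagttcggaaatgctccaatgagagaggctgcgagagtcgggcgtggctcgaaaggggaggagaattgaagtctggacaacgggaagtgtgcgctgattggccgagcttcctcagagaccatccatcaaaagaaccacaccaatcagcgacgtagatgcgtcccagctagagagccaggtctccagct
Mdm2: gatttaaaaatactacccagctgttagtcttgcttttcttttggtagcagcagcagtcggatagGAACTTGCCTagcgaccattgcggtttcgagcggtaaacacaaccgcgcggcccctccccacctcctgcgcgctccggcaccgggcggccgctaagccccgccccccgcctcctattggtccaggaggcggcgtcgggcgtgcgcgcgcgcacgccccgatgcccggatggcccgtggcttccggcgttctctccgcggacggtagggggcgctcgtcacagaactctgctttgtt
Sesn1: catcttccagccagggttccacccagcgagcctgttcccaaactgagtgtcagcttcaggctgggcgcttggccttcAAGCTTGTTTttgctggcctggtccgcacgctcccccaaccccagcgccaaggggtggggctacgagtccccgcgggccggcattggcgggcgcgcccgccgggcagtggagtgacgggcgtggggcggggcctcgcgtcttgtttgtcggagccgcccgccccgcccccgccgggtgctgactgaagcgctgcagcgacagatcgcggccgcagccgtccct

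Windows were found for 24 of the 32 members, and these genes had 32 windows in all. A half-site lay in 10 of the 32 windows (31.2%), which belong to 9 genes (*Bax*, *Aen*, *Ei24*, *Sesn1*, *Mdm2*, *Ccng1*, *Trp53*, *Polk*, and *Cdkn1a*), against 8.36% of the 32851 windows of all genes. The 10 include 2 overlapping windows of *Aen* that hold the same half-site, so windows are not independent. Counted by gene, a half-site lay in a window of 9 of 24 members and of 2582 of all 27025 genes. The half-site began 185 bases before the start in *Ccng1*, 186 in *Mdm2*, and 173 in *Sesn1*. The *Sesn1* gene spans chromosome 10:41809935-41908424 (+ strand), so this start lies inside the gene and not at its 5′ end. The windows of *Ccng1* and *Mdm2* lie at the 5′ end. The upstream start of *Cdkn1a*, 2790 bases from its other start, had 2 half-sites, which began 73 and 51 bases before it, with 12 bases between them. This was the only window of a member with a full element, defined as 2 half-sites at most 13 bases apart, which 0.0731% of all windows held. Only exact matches were counted. The 10 bases directly after the second *Cdkn1a* half-site depart from the consensus only at their first base and were not marked. *Sesn1*, which was lower in JMO than in IR cells, carried a half-site at this internal start. *Mdm2* and *Ccng1*, which were higher, carried theirs at the 5′ end, so the windows are not alike. Such matches describe letters in a window and not binding. Promoters of *Tnfrsf10b*, *Ddb2*, *Perp*, *Trp53inp1*, *Pmaip1*, *Xpc*, *Zmat3*, and *Rrm2b* were not analysed here.

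The mRNA of p53 itself (*Trp53*, ENSMUSG00000059552, chromosome 11:69580359-69591873, + strand) varied little. Basal *Trp53* CPM was 162, 166 and 167 in DKO, 157, 148 and 150 in IR, 168, 161 and 169 in K1030R, 165, 162 and 155 in ∆CT, and 168, 167 and 162 in JMO cells. With insulin, *Trp53* CPM was 142, 150 and 143 in IR, 169, 161 and 171 in K1030R, 156 and 154 in ∆CT, and 170, 165 and 160 in JMO cells. IR libraries were the lowest, from 142 to 157 CPM, and overlapped only those of ∆CT cells, while the other 4 lines overlapped one another. Against DKO cells the log2 fold change was -0.12 ± 0.034 (edgeR adjusted p = 0.00293) in IR and 0.00 ± 0.034 (edgeR adjusted p = 0.937) in JMO cells, where ± gives the standard error. Adjusted p-values came from the quasi-likelihood F-test of edgeR and were adjusted over all 15402 genes by the Benjamini-Hochberg method, and a gene was called at an adjusted p below 0.05. Protein and modification of p53 were not analysed here.

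**Figure D1:**
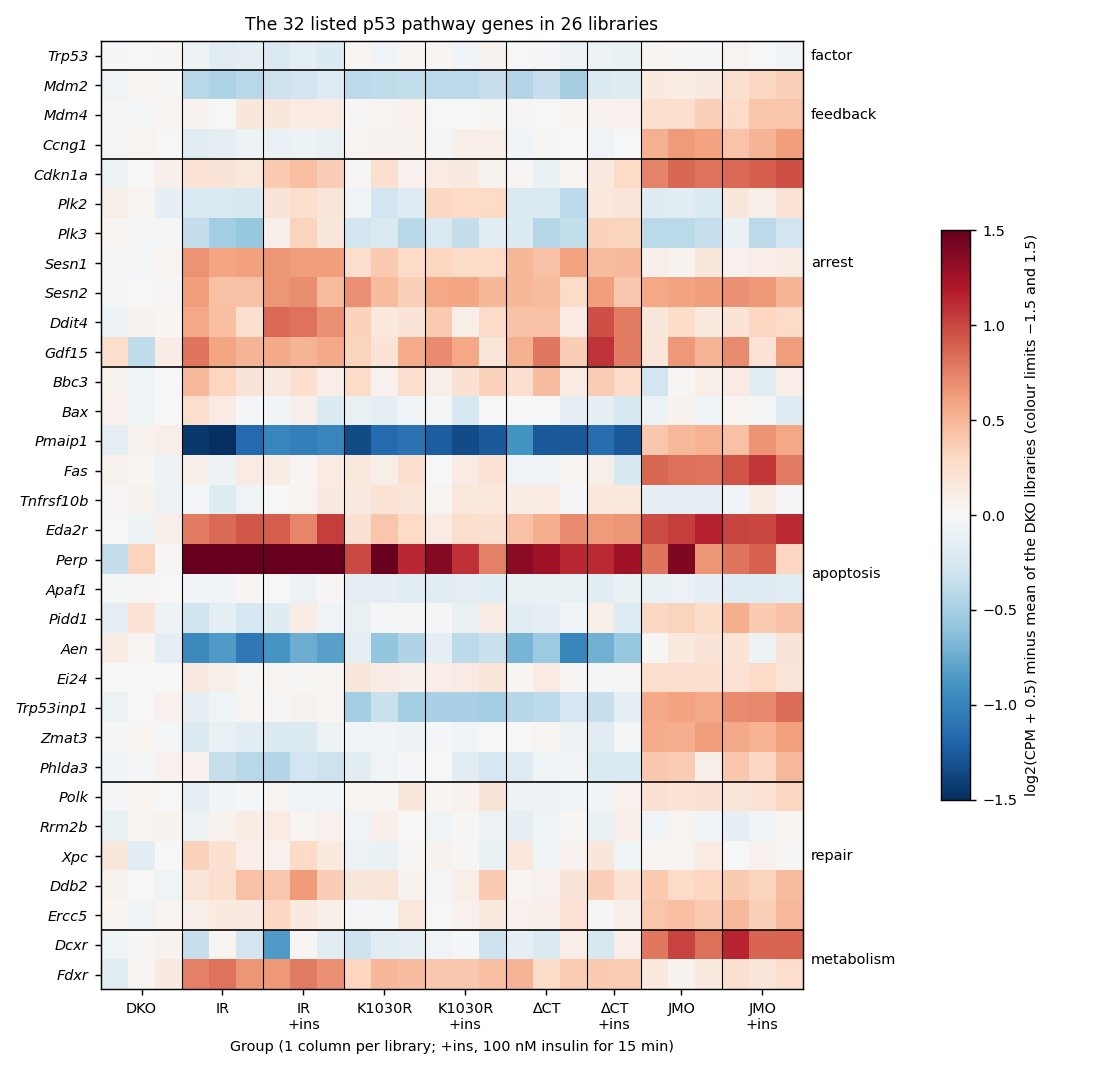
Level of the 32 genes (rows, grouped by role) in each of the 26 libraries (columns, grouped by line and treatment), as log2(CPM + 0.5) minus the mean of the DKO libraries, with colours cut at -1.5 and 1.5. The 6 JMO libraries on the right are red for 12 genes that stay lower in all other libraries, while *Trp53* in the top row stays near 0 throughout.

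Many targets of p53 were highest in JMO cells. Against DKO cells, 18 of 32 members rose in JMO cells, where 16.8% of all genes tested did, and 4 fell, against 17.4% of all genes, with 34.2% called in either direction. The median log2 fold change was 0.26 over the members and 0.01 over all genes. Against the mean of the IR, ∆CT, and K1030R lines, 16 members were higher in JMO cells (21.9% of all genes) and 5 lower (21.9%), with a median of 0.16 over the members and 0.01 over all genes. Both comparisons use the same 3 basal JMO libraries.

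The libraries with insulin were a separate set of samples of the same lines. There, 17 members were higher in JMO than in the mean of the IR, ∆CT, and K1030R lines (21.5% of all genes) and 7 were lower (20.3%), with medians of 0.14 and 0.01. The members called in both sets of libraries numbered 20, and these had the same direction in both, with 16 higher and 4 lower in JMO cells. Of all genes, 43.8% were called without and 41.8% with insulin. The share of all genes called in both was not counted, so the agreement is not particular to the members. Only 1 gene of the list, *Trp53*, was called higher in JMO cells with insulin and not without it, with a log2 fold change of 0.09 ± 0.028 (edgeR adjusted p = 0.0122), a call lost without any 1 of insulin JMO replicate 1 or 2 (edgeR adjusted p up to 0.123).

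Without insulin, 15 of 32 members were called higher in JMO cells than in each of DKO, IR, K1030R, and ∆CT cells, against 3.35% of all genes, and 0 were called lower than in each of them, against 3.95%. The 15 were *Mdm2*, *Mdm4*, *Ccng1*, *Cdkn1a*, *Pmaip1*, *Fas*, *Eda2r*, *Pidd1*, *Ei24*, *Trp53inp1*, *Zmat3*, *Phlda3*, *Polk*, *Ercc5*, and *Dcxr*. For 12 members all 6 JMO libraries, with and without insulin, lay above all 20 other libraries, which held for 2.81% of all genes, and for 0 members all 6 lay below, against 3.36%. These were the same genes without *Eda2r*, *Ei24*, and *Polk*. The study had named *Cdkn1a* and *Trp53inp1* as high in JMO cells from these samples, so their direction is not independent evidence. The whole list was also chosen with earlier results of these data known, so these shares describe it and are not a test.

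When a change of at least 1.5-fold was required (glmTreat), 4 members were called in JMO against DKO cells (2.11% of all genes), 6 in JMO cells against the mean of the other 3 receptor lines without insulin (4.56%), and 4 with insulin (4.62%). The counts were 4 for IR (6.88%), 2 for K1030R (5.29%), and 2 for ∆CT against DKO cells (6.3%). With the kinase domain present against absent, 3 members were called (5.69%). No member was called at this size for K1030R (1.04% of all genes) or ∆CT (0.708%) against IR cells, where 1 member each had an unadjusted p below 0.05 with glmTreat and 0 with limma TREAT. The same held for insulin, where 0.221% of all genes were called in IR, 0.214% in ∆CT, 0.039% in JMO, and 0% in K1030R cells, and the members with an unadjusted p below 0.05 numbered 1, 1, 0, and 0 with glmTreat and 0 in each line with limma TREAT.

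**Figure D2:**
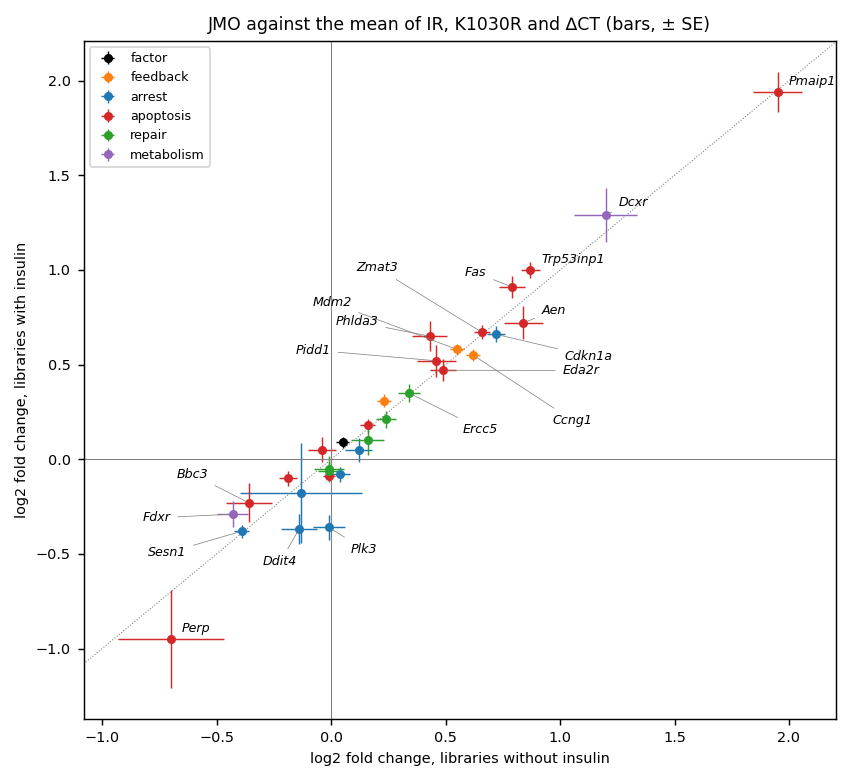
Log2 fold change of each of the 32 genes in JMO cells against the mean of the IR, ∆CT, and K1030R lines, in libraries without insulin (horizontal axis) and with insulin (vertical axis), with bars for the standard error and colours for the role. Points lie near the dotted line of equal values from *Perp* at the lower left (-0.70 and -0.95) to *Pmaip1* at the upper right (1.95 and 1.94), and *Plk3* and *Ddit4* lie below it.

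All 3 feedback genes were higher in JMO cells than in every other line. *Mdm2* (ENSMUSG00000020184, chromosome 10:117688875-117710758, - strand) codes for the ubiquitin ligase that marks p53 for destruction. Basal *Mdm2* CPM was 109, 115 and 114 in DKO, 84.5, 81.4 and 84.1 in IR, 85.8, 86.2 and 86.9 in K1030R, 83, 88.4 and 79.7 in ∆CT, and 125, 122 and 124 in JMO cells. With insulin, *Mdm2* CPM was 91, 92 and 98.5 in IR, 86, 85.4 and 88.3 in K1030R, 97.9 and 99.6 in ∆CT, and 133, 140 and 144 in JMO cells. The lines fell into 3 levels that did not overlap, with IR, K1030R, and ∆CT cells lowest, DKO cells between, and JMO cells highest. *Mdm2* was lower than in DKO cells, with a log2 fold change of -0.44 ± 0.038 (edgeR adjusted p = 6.43e-12) in IR, -0.39 ± 0.038 (edgeR adjusted p = 1.95e-10) in K1030R, and -0.43 ± 0.038 (edgeR adjusted p = 1.05e-11) in ∆CT cells. It was higher in JMO cells by 0.13 ± 0.037 (edgeR adjusted p = 0.00465).

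*Ccng1* (ENSMUSG00000020326, chromosome 11:40748552-40755311, - strand) codes for cyclin G1, which recruits a phosphatase to Mdm2. Basal *Ccng1* CPM was 91.8, 96.1 and 93.4 in DKO, 83.7, 84.4 and 88.7 in IR, 96.7, 97.3 and 97.2 in K1030R, 90.8, 94.6 and 94.5 in ∆CT, and 136, 146 and 143 in JMO cells. With insulin, *Ccng1* CPM was 87.3, 88.9 and 86.5 in IR, 91.8, 99.4 and 100 in K1030R, 90.1 and 93.6 in ∆CT, and 126, 134 and 145 in JMO cells. JMO cells stood apart from DKO, K1030R, and ∆CT cells, which overlapped. *Ccng1* changed by a log2 value of 0.59 ± 0.04 (edgeR adjusted p = 5.28e-14) in JMO against DKO cells, and -0.13 ± 0.041 (edgeR adjusted p = 0.00855) in IR against DKO cells. *Mdm4*, a relative of Mdm2 that blocks the activity of p53, ranged from 143 to 162 CPM in JMO libraries and from 119 to 137 CPM in all others. Its log2 fold change in JMO against DKO cells was 0.27 ± 0.039 (edgeR adjusted p = 7.27e-07).

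Among the arrest genes, *Cdkn1a* was the 1 of 7 that was high in JMO cells against every line. *Cdkn1a* (ENSMUSG00000023067, chromosome 17:29090976-29100727, + strand) codes for p21, the inhibitor of cyclin-dependent kinases through which p53 stops the cell cycle. Basal *Cdkn1a* CPM was 39.5, 41.5 and 43.8 in DKO, 48.1, 47.7 and 46.3 in IR, 42.1, 49.1 and 43.5 in K1030R, 42, 38.6 and 42.7 in ∆CT, and 69.9, 76 and 73.4 in JMO cells. With insulin, *Cdkn1a* CPM was 54.7, 56.9 and 53.7 in IR, 45.2, 45.6 and 43.1 in K1030R, 46.1 and 51.2 in ∆CT, and 75.1, 77.9 and 81.4 in JMO cells. The lowest JMO library exceeded the highest library of any other line, an IR library with insulin. Against DKO cells the log2 fold change of *Cdkn1a* was 0.81 ± 0.052 (edgeR adjusted p = 1.53e-14) in JMO and 0.18 ± 0.054 (edgeR adjusted p = 0.00481) in IR cells. An annotated gene on the opposite strand overlaps *Cdkn1a*, and although the reads were reverse-stranded, whether their assignment used strand is not given in the sources used here.

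The 2 sestrins, which restrain the growth kinase mTORC1, had other patterns. *Sesn1* ranged from 66.4 to 75.8 CPM in DKO and JMO libraries and from 81.3 to 108 CPM in the 17 libraries of IR, K1030R, and ∆CT cells. Its log2 fold change against DKO cells was 0.63 ± 0.04 (edgeR adjusted p = 2.35e-15) in IR, 0.32 ± 0.041 (edgeR adjusted p = 5.41e-08) in K1030R, and 0.52 ± 0.04 (edgeR adjusted p = 6.26e-13) in ∆CT cells, and 0.10 ± 0.041 (edgeR adjusted p = 0.0668) in JMO cells, which did not pass. *Sesn1* was lower in JMO than in the mean of the other 3 receptor lines, with a log2 fold change of -0.39 ± 0.033 (edgeR adjusted p = 4.26e-12). *Sesn2* ranged from 18.5 to 19.1 CPM in DKO and from 23.1 to 30.8 CPM in all receptor libraries. It was higher than in DKO cells in all 4 receptor lines, with log2 fold changes from 0.44 in ∆CT to 0.62 in JMO cells.

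*Plk2* and *Plk3*, polo-like kinases that respond to serum as well as to p53, were lower without insulin in all 4 receptor lines than in DKO cells. For *Plk3* the log2 fold change ran from -0.50 in IR to -0.31 in K1030R cells, and for *Plk2* from -0.28 in ∆CT to -0.18 in K1030R cells, each with an edgeR adjusted p of 0.00563 or smaller. The call of *Plk2* in K1030R cells was lost without basal K1030R replicate 2 (edgeR adjusted p = 0.0577). *Ddit4*, another inhibitor of mTORC1 signaling, was higher than in DKO cells in IR (0.44 ± 0.098, edgeR adjusted p = 0.000878) and ∆CT cells (0.34 ± 0.098, edgeR adjusted p = 0.00758). *Gdf15*, a secreted stress factor, stayed between 0.17 and 1.34 CPM in all libraries, and its log2 fold change against DKO of 1.13 ± 0.353 (edgeR adjusted p = 0.00756) in IR cells rested on 3 to 24 counts per library and was lost without DKO replicate 2 (edgeR adjusted p = 0.061).

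**Figure D3:**
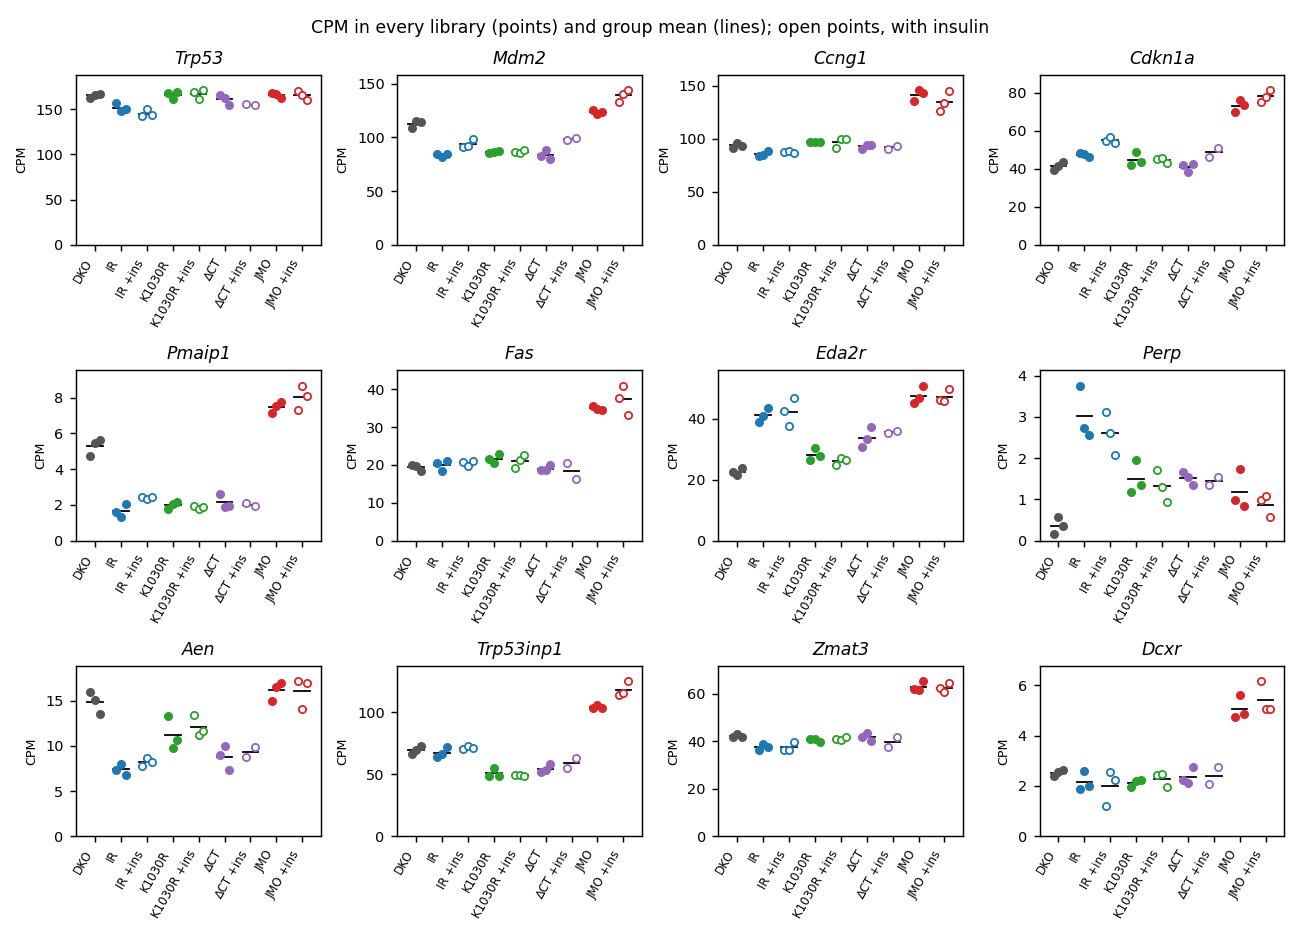
CPM (vertical axes, from 0) of 12 members in every library (points, open with insulin), with the group mean as a line and groups along the horizontal axes. *Cdkn1a*, *Fas*, *Ccng1*, *Zmat3*, *Trp53inp1*, *Dcxr*, and *Pmaip1* sit highest in the 6 JMO libraries. *Pmaip1* and *Aen* are lower in IR, K1030R, and ∆CT than in DKO and JMO cells, and *Trp53* is nearly level.

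Of the 14 cell death genes, 9 rose in JMO against DKO cells and 2 fell, where 16.8% of all genes rose and 17.4% fell. Apoptosis itself ranked otherwise in the study, where DKO and JMO cells were resistant to it. There, DNA fragmentation after serum starvation and other stress was largely restored by IR, K1030R, and ∆CT but not by JMO. The mRNA levels of these genes are thus not a measure of cell death. Among the 14 genes, *Pmaip1* and *Aen* showed a different pattern, with high levels in both DKO and JMO cells and lower levels where the receptor kept its kinase domain. For *Pmaip1* this held alike with an active or a dead kinase, while for *Aen* some K1030R libraries came close to DKO libraries. *Pmaip1* (ENSMUSG00000024521, chromosome 18:66458533-66465565, + strand) codes for Noxa, which blocks a protector of mitochondria. Basal *Pmaip1* CPM was 4.73, 5.46 and 5.65 in DKO, 1.62, 1.3 and 2.07 in IR, 1.78, 2.06 and 2.17 in K1030R, 2.61, 1.9 and 1.91 in ∆CT, and 7.16, 7.55 and 7.78 in JMO cells. With insulin, *Pmaip1* CPM was 2.42, 2.34 and 2.42 in IR, 1.95, 1.78 and 1.9 in K1030R, 2.12 and 1.91 in ∆CT, and 7.33, 8.68 and 8.1 in JMO cells. The 9 DKO and JMO libraries lay above all 17 others, and JMO above DKO libraries. Against DKO cells its log2 fold change was -1.66 ± 0.15 (edgeR adjusted p = 1.92e-11) in IR, -1.39 ± 0.148 (edgeR adjusted p = 1.14e-09) in K1030R, and -1.30 ± 0.144 (edgeR adjusted p = 2.54e-09) in ∆CT cells, and 0.50 ± 0.122 (edgeR adjusted p = 0.0015) in JMO cells. Libraries held 24 to 176 counts of *Pmaip1*.

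*Aen* (ENSMUSG00000030609, chromosome 7:78895854-78911209, + strand) codes for a nuclease that takes part in the breakdown of DNA during apoptosis. Basal *Aen* CPM was 16, 15.1 and 13.5 in DKO, 7.34, 8.04 and 6.82 in IR, 13.3, 9.76 and 10.7 in K1030R, 8.96, 9.99 and 7.3 in ∆CT, and 15, 16.5 and 17 in JMO cells. With insulin, *Aen* CPM was 7.79, 8.64 and 8.24 in IR, 13.4, 11.2 and 11.7 in K1030R, 8.78 and 9.85 in ∆CT, and 17.2, 14.1 and 17 in JMO cells. DKO and JMO libraries overlapped, and both lay above the other 3 lines, among which the highest values were in K1030R cells. The log2 fold change of *Aen* against DKO was -1.0 ± 0.113 (edgeR adjusted p = 3.9e-09) in IR and 0.12 ± 0.102 (edgeR adjusted p = 0.388) in JMO cells. K1030R cells exceeded IR cells by a log2 fold change of 0.60 ± 0.117 (edgeR adjusted p = 0.000151). Besides these, *Mdm2* was the only member for which all 17 IR, K1030R, and ∆CT libraries lay below the 9 DKO and JMO libraries, which held for 5.43% of all genes. *Sesn1* and *Fdxr* were the 2 members above, against 5.21% of all genes.

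The death receptors differed among themselves. *Fas* (ENSMUSG00000024778, chromosome 19:34290666-34327772, + strand) codes for the receptor of Fas ligand. Basal *Fas* CPM was 20.1, 19.8 and 18.3 in DKO, 20.5, 18.4 and 21.1 in IR, 21.6, 20.6 and 22.9 in K1030R, 18.6, 18.6 and 19.9 in ∆CT, and 35.7, 34.8 and 34.6 in JMO cells. With insulin, *Fas* CPM was 20.9, 19.8 and 21.1 in IR, 19.3, 21.2 and 22.6 in K1030R, 20.6 and 16.4 in ∆CT, and 37.7, 41 and 33.3 in JMO cells. The 20 libraries of the other lines overlapped, and the 6 JMO libraries lay above them. *Fas* was higher in JMO cells, with a log2 fold change of 0.86 ± 0.073 (edgeR adjusted p = 2.03e-11) against DKO, 0.81 ± 0.073 (edgeR adjusted p = 2.43e-11) against IR, 0.69 ± 0.073 (edgeR adjusted p = 1.45e-09) against K1030R, and 0.88 ± 0.073 (edgeR adjusted p = 4.71e-12) against ∆CT cells. *Tnfrsf10b*, the receptor for TRAIL, was lower in JMO than in DKO cells, with a log2 fold change of -0.13 ± 0.047 (edgeR adjusted p = 0.0288), a call lost without any 1 of DKO replicate 1 or 2, basal JMO replicate 1 or 2 or 3 (edgeR adjusted p up to 0.133). A small annotated gene on the same strand overlaps *Fas*.

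*Eda2r* (ENSMUSG00000034457, chromosome X:97333840-97377216, - strand) codes for a receptor of the TNF receptor family that binds ectodysplasin A2. Basal *Eda2r* CPM was 22.4, 21.4 and 24 in DKO, 38.9, 41.1 and 43.6 in IR, 26.5, 30.3 and 27.9 in K1030R, 30.8, 33.3 and 37.2 in ∆CT, and 45.1, 47 and 51 in JMO cells. With insulin, *Eda2r* CPM was 42.7, 37.8 and 46.8 in IR, 24.7, 27.3 and 26.6 in K1030R, 35.3 and 36.1 in ∆CT, and 46.1, 45.9 and 49.8 in JMO cells. DKO libraries were lowest and did not overlap those of any receptor line. *Eda2r* was higher than in DKO cells by a log2 fold change of 0.86 ± 0.075 (edgeR adjusted p = 7.07e-11) in IR, 0.32 ± 0.08 (edgeR adjusted p = 0.00173) in K1030R, 0.57 ± 0.077 (edgeR adjusted p = 3.62e-07) in ∆CT, and 1.07 ± 0.074 (edgeR adjusted p = 1.47e-12) in JMO cells. IR cells, with the intact receptor, exceeded K1030R cells (log2 fold change of K1030R against IR, -0.54 ± 0.074, edgeR adjusted p = 1.27e-06).

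*Trp53inp1* (ENSMUSG00000028211, chromosome 4:11156431-11174379, + strand) codes for a nuclear protein that promotes arrest and death by p53 and is itself a target. Basal *Trp53inp1* CPM was 66.1, 69.7 and 72.8 in DKO, 63.9, 66.5 and 71.5 in IR, 48.5, 55.1 and 48.5 in K1030R, 51.5, 52.9 and 58.4 in ∆CT, and 103, 106 and 103 in JMO cells. With insulin, *Trp53inp1* CPM was 70.4, 72.3 and 71.1 in IR, 49.6, 49.4 and 48.3 in K1030R, 54.5 and 62.9 in ∆CT, and 114, 115 and 125 in JMO cells. JMO libraries lay above all others, DKO and IR libraries overlapped, and K1030R and ∆CT libraries lay below both. Against DKO cells its log2 fold change was 0.58 ± 0.052 (edgeR adjusted p = 1.4e-10) in JMO, -0.05 ± 0.054 (edgeR adjusted p = 0.465) in IR, -0.46 ± 0.056 (edgeR adjusted p = 4.51e-08) in K1030R, and -0.36 ± 0.055 (edgeR adjusted p = 1.93e-06) in ∆CT cells.

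*Zmat3* (ENSMUSG00000027663, chromosome 3:32334792-32366014, - strand) codes for an RNA-binding zinc finger protein. Basal *Zmat3* CPM was 41.7, 42.9 and 41.6 in DKO, 36.4, 38.8 and 37.4 in IR, 40.9, 41 and 39.8 in K1030R, 41.8, 43.3 and 40 in ∆CT, and 62.2, 61.5 and 65.4 in JMO cells. With insulin, *Zmat3* CPM was 36.4, 36.5 and 39.8 in IR, 41.1, 40.6 and 41.8 in K1030R, 37.4 and 41.6 in ∆CT, and 62.5, 60.7 and 64.7 in JMO cells. JMO libraries lay above all others. The log2 fold change of *Zmat3* against DKO was 0.58 ± 0.045 (edgeR adjusted p = 1.4e-12) in JMO and -0.16 ± 0.047 (edgeR adjusted p = 0.00398) in IR cells. *Phlda3*, which blocks recruitment of Akt to the membrane, reached 24 to 31.8 CPM in JMO and 16.6 to 23.7 CPM in other libraries, and its log2 fold change in JMO against DKO cells was 0.30 ± 0.095 (edgeR adjusted p = 0.0169), a call lost without any 1 of DKO replicate 1, basal JMO replicate 1 or 2 (edgeR adjusted p up to 0.0909). *Pidd1*, which assembles a complex that activates caspase-2, was higher by 0.32 ± 0.105 (edgeR adjusted p = 0.0151) in the same comparison, and *Ei24*, a membrane protein of the endoplasmic reticulum, by 0.25 ± 0.041 (edgeR adjusted p = 1.18e-05). The call of *Pidd1* was lost without any 1 of DKO replicate 1 or 3 (edgeR adjusted p up to 0.0881).

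*Perp* (ENSMUSG00000019851, chromosome 10:18845020-18857073, + strand), which codes for a membrane protein of desmosomes and p53-dependent death, was scarce, and in JMO cells it was higher than in DKO but lower than in IR cells. Basal *Perp* CPM was 0.163, 0.568 and 0.36 in DKO, 3.76, 2.72 and 2.57 in IR, 1.18, 1.96 and 1.35 in K1030R, 1.66, 1.55 and 1.35 in ∆CT, and 0.976, 1.73 and 0.842 in JMO cells. With insulin, *Perp* CPM was 3.11, 2.62 and 2.07 in IR, 1.7, 1.31 and 0.927 in K1030R, 1.34 and 1.55 in ∆CT, and 0.974, 1.07 and 0.562 in JMO cells. IR libraries were the highest, and DKO libraries the lowest apart from 1 overlap with JMO cells. Its log2 fold change against DKO was 3.05 ± 0.323 (edgeR adjusted p = 8.04e-10) in IR and 1.68 ± 0.369 (edgeR adjusted p = 0.000478) in JMO cells, but the 3 DKO libraries held 3, 10, and 9 counts, so these sizes are uncertain. *Perp* was lower in JMO than in IR cells, with a log2 fold change of -1.37 ± 0.26 (edgeR adjusted p = 5.03e-05).

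*Bax*, *Bbc3*, and *Apaf1* act with *Pmaip1* in the mitochondrial pathway of death, but none of these 3 was called higher in JMO against DKO cells. For *Bax*, which opens the outer mitochondrial membrane, the log2 fold change in JMO against DKO cells was -0.04 ± 0.077 (edgeR adjusted p = 0.736), and for *Bbc3*, which codes for Puma, it was -0.07 ± 0.125 (edgeR adjusted p = 0.736). *Bbc3* was lower in JMO than in the mean of the IR, ∆CT, and K1030R lines without insulin, with a log2 fold change of -0.36 ± 0.101 (edgeR adjusted p = 0.00352), a call lost without basal JMO replicate 1 (edgeR adjusted p = 0.101). *Apaf1*, the scaffold of the apoptosome, was lower than in DKO cells, with a log2 fold change of -0.10 ± 0.031 (edgeR adjusted p = 0.00937) in JMO and -0.15 ± 0.032 (edgeR adjusted p = 0.000208) in K1030R cells.

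Of the 5 repair genes, 3 rose in JMO against DKO cells and 0 fell, beside 16.8% and 17.4% of all genes. *Ercc5*, an endonuclease of nucleotide excision repair, ranged from 34.5 to 37.7 CPM in JMO and from 25.7 to 33.3 CPM in all other libraries, with a log2 fold change against DKO of 0.43 ± 0.059 (edgeR adjusted p = 4.81e-07). *Polk*, a polymerase that copies damaged DNA, was higher by 0.22 ± 0.051 (edgeR adjusted p = 0.000751), and *Ddb2*, which recognizes ultraviolet damage, by 0.35 ± 0.092 (edgeR adjusted p = 0.00317). *Ddb2* was also higher in IR than in DKO cells (0.31 ± 0.093, edgeR adjusted p = 0.00592), a call lost without basal IR replicate 3 (edgeR adjusted p = 0.0607), and its difference between JMO and the mean of the IR, ∆CT, and K1030R lines did not pass (0.16 ± 0.073, edgeR adjusted p = 0.0712). *Rrm2b*, a subunit of ribonucleotide reductase, had a log2 fold change of -0.02 ± 0.056 (edgeR adjusted p = 0.805) in JMO against DKO cells, and *Xpc*, another sensor of damage, 0.06 ± 0.082 (edgeR adjusted p = 0.637).

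The 2 metabolic enzymes had different patterns. *Dcxr* (ENSMUSG00000039450, chromosome 11:120725399-120727281, - strand) codes for a reductase of sugars and dicarbonyls. Basal *Dcxr* CPM was 2.39, 2.56 and 2.64 in DKO, 1.88, 2.61 and 1.98 in IR, 1.95, 2.21 and 2.23 in K1030R, 2.23, 2.1 and 2.74 in ∆CT, and 4.76, 5.61 and 4.86 in JMO cells. With insulin, *Dcxr* CPM was 1.18, 2.57 and 2.22 in IR, 2.42, 2.48 and 1.95 in K1030R, 2.07 and 2.75 in ∆CT, and 6.17, 5.05 and 5.06 in JMO cells. The 6 JMO libraries lay above all others, which overlapped, and the log2 fold change against DKO was 1.0 ± 0.175 (edgeR adjusted p = 2.68e-05). *Fdxr*, the mitochondrial reductase that passes electrons to ferredoxin, ranged from 8.04 to 11 CPM in DKO and JMO libraries and from 11.1 to 16.3 CPM in the other lines. Its log2 fold change against DKO was 0.76 ± 0.08 (edgeR adjusted p = 7.24e-10) in IR and 0.11 ± 0.085 (edgeR adjusted p = 0.365) in JMO cells.

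The receptors with a kinase domain were also set against DKO cells, in comparisons that share the 3 DKO libraries. In IR cells 19 of 32 members were called against 49.8% of all genes, with 11 higher (25.6%) and 8 lower (24.1%). In K1030R cells 14 were called against 41.6% of all genes, with 7 higher (21.2%) and 7 lower (20.4%). In ∆CT cells 15 were called against 46.4% of all genes, with 8 higher (23.4%) and 7 lower (22.9%). The median log2 fold changes of the members were 0.04, 0.04, and -0.02, and that of all genes was 0.01 in each comparison. The arrest genes leaned upward in IR cells, with 5 of 7 higher and 2 lower. The 5 were *Cdkn1a*, *Sesn1*, *Sesn2*, *Ddit4*, and *Gdf15*, and the 2 were *Plk2* and *Plk3*.

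Loss of kinase activity was examined by setting K1030R beside IR cells. Of the members, 5 were higher (13.9% of all genes) and 8 lower (16.3%) in K1030R cells, 13 in all, against 30.2% of all genes. The 5 higher ones were *Trp53* (0.14 ± 0.034, edgeR adjusted p = 0.00243), *Ccng1*, *Tnfrsf10b* (0.27 ± 0.047, edgeR adjusted p = 2.9e-05), *Aen*, and *Polk*. The lower ones included *Eda2r*, *Trp53inp1* (-0.41 ± 0.056, edgeR adjusted p = 1.06e-06), *Sesn1* (-0.31 ± 0.039, edgeR adjusted p = 1.68e-07), and *Fdxr* (-0.32 ± 0.078, edgeR adjusted p = 0.00158), and the others were *Bax*, *Perp*, *Apaf1*, and *Xpc*. With some 1 library left out, the calls of *Bax*, *Polk*, and *Xpc* were lost (edgeR adjusted p up to 0.195, 0.17, and 0.0648). In ∆CT against IR cells 10 members were called (26.1% of all genes), with 3 higher (11.2%) and 7 lower (14.8%), and among them *Trp53inp1* had a log2 fold change of -0.31 ± 0.055 (edgeR adjusted p = 6.37e-05) and *Cdkn1a* of -0.20 ± 0.055 (edgeR adjusted p = 0.00447). The 3 higher ones were *Tnfrsf10b* (0.16 ± 0.047, edgeR adjusted p = 0.01), *Ccng1*, and *Zmat3*. The other 5 lower ones were *Sesn1*, *Eda2r*, *Perp*, *Apaf1*, and *Fdxr*. Without basal ∆CT replicate 2 the count was 5, all lower. With some 1 library left out, the calls of *Ccng1*, *Zmat3*, *Sesn1*, and *Apaf1* were lost (edgeR adjusted p up to 0.102, 0.0985, 0.201, and 0.103). The call of *Cdkn1a* was lost without basal ∆CT replicate 2 (edgeR adjusted p = 0.0524). That of *Tnfrsf10b* was lost without any 1 of basal IR replicate 2, basal ∆CT replicate 1 or 2 (edgeR adjusted p up to 0.0966). ∆CT and K1030R cells differed for 1 member, *Sesn1* (0.19 ± 0.04, edgeR adjusted p = 0.00252), against 3.43% of all genes.

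IR, K1030R, and ∆CT cells were also compared as a set with DKO and JMO cells, the lines without a kinase domain. Of the members, 17 were lower (25.6% of all genes) and 8 higher (26.7% of all genes) where the domain was present, 25 in all against 52.3% of all genes. All 3 feedback genes were lower. Of the 14 cell death genes 7 were lower and 3 higher, of the 7 arrest genes 3 were lower and 4 higher, and of the 5 repair genes 2 were lower and 0 higher. In this contrast the call of *Gdf15* was lost without any 1 of 10 libraries (edgeR adjusted p up to 0.166). That of *Trp53* was lost without any 1 of 8 (edgeR adjusted p up to 0.0944). With DKO cells as the only reference, the cell death genes lower and higher were 3 and 3 in IR, 4 and 4 in K1030R, and 4 and 3 in ∆CT cells. Of the repair genes 0 were lower in any of these lines and 2 were higher in IR cells. Among the lower genes *Pmaip1* had the largest log2 difference, -1.70 ± 0.091 (edgeR adjusted p = 1.17e-17), and *Aen* the next, -0.78 ± 0.07 (edgeR adjusted p = 1.51e-11). JMO libraries enter this contrast as well as the comparisons of JMO cells above. It averages DKO with JMO cells, so high values in JMO cells alone can make a member lower in it. Set against DKO cells only, 8 members were lower in IR (24.1% of all genes), 7 in K1030R (20.4%), and 7 in ∆CT cells (22.9%). Those higher numbered 11 (25.6%), 7 (21.2%), and 8 (23.4%). All 17 libraries lay below the 9 DKO and JMO libraries for 3 members (5.43% of all genes) and above them for 2 (5.21%).

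Insulin for 15 min raised few members, and with all libraries in the fit none was called lower. In IR cells 4 of 32 rose, against 1.87% of all genes called in either direction, in ∆CT cells 5 (1.01%), in JMO cells 2 (0.364%), and in K1030R cells 1 (0.156%). Without basal IR replicate 2 2 members were called in IR cells, both higher, and without replicate 3 there were 6 higher and 1 lower, and in JMO cells it was 1 without any 1 of the basal replicates or without insulin replicate 2 or 3. *Plk2* was the member that rose in every receptor line. Its CPM rose from 106, 106 and 105 to 142, 150 and 141 in IR and from 120, 102 and 109 to 154, 153 and 153 in K1030R cells. The same step was from 107, 107 and 95 to 139 and 141 in ∆CT and from 110, 111 and 106 to 140, 132 and 143 in JMO cells. Insulin libraries lay above basal ones in each line. The log2 fold change was 0.45 ± 0.05 (edgeR adjusted p = 4.51e-07) in IR, 0.48 ± 0.05 (edgeR adjusted p = 3.03e-06) in K1030R, 0.44 ± 0.056 (edgeR adjusted p = 5.23e-06) in ∆CT, and 0.34 ± 0.05 (edgeR adjusted p = 0.000386) in JMO cells. The effect in K1030R minus that in IR cells was 0.03 ± 0.071 (edgeR adjusted p = 0.957), and in JMO minus IR cells -0.11 ± 0.071 (edgeR adjusted p = 0.834). DKO cells with insulin were not analysed here, so a rise without any receptor cannot be set beside these.

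*Plk3* rose in IR and ∆CT cells. Its CPM went from 14.2, 12.6 and 12.2 to 19.4, 23.2 and 20.7 in IR cells and from 15.9, 13.5 and 14.1 to 23.5 and 23.2 in ∆CT cells. In K1030R cells the values were 15.1, 15.7 and 13.6 without and 15.6, 14.2 and 16.4 with insulin, and in JMO cells 13.8, 13.8 and 14.4 and 17.1, 13.9 and 15. Basal and insulin libraries were separate in IR and ∆CT cells and overlapped in K1030R and JMO cells. The log2 fold change was 0.70 ± 0.081 (edgeR adjusted p = 1.97e-07) in IR, 0.68 ± 0.088 (edgeR adjusted p = 1.74e-06) in ∆CT, 0.06 ± 0.084 (edgeR adjusted p = 0.986) in K1030R, and 0.13 ± 0.084 (edgeR adjusted p = 0.829) in JMO cells. The effect differed from that in IR cells by -0.64 ± 0.117 (edgeR adjusted p = 0.0014) in K1030R and by -0.57 ± 0.117 (edgeR adjusted p = 0.0113) in JMO cells, and by -0.01 ± 0.12 (edgeR adjusted p = 1) in ∆CT cells. The difference in JMO cells was lost without any 1 of basal IR replicate 2, insulin IR replicate 2, insulin JMO replicate 2 (edgeR adjusted p up to 0.0725). *Plk3* was the only member with a called difference of insulin effects, which 0.37% of all genes had for K1030R, 0.279% for JMO, and 0.00649% for ∆CT cells. *Tctex1d4* overlaps *Plk3* on the opposite strand.

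*Mdm2* rose with insulin by 0.17 ± 0.038 (edgeR adjusted p = 0.00979) in IR, 0.24 ± 0.042 (edgeR adjusted p = 0.000545) in ∆CT, and 0.17 ± 0.036 (edgeR adjusted p = 0.0213) in JMO cells, and its log2 fold change in K1030R cells was 0.00 ± 0.038 (edgeR adjusted p = 1). *Cdkn1a* rose by 0.22 ± 0.053 (edgeR adjusted p = 0.0204) in IR and 0.25 ± 0.06 (edgeR adjusted p = 0.0316) in ∆CT cells, beside -0.01 ± 0.055 (edgeR adjusted p = 0.996) in K1030R and 0.10 ± 0.049 (edgeR adjusted p = 0.732) in JMO cells. For *Mdm2* the call in IR cells was lost without any 1 of basal IR replicate 2, insulin IR replicate 3 (edgeR adjusted p up to 0.118) and that in JMO cells lost without any 1 of basal JMO replicate 1 or 2 or 3, insulin JMO replicate 2 or 3 (edgeR adjusted p up to 0.189). For *Cdkn1a* the call in IR cells was lost without any 1 of basal IR replicate 1 or 2, insulin IR replicate 1 or 2 (edgeR adjusted p up to 0.0791) and that in ∆CT cells lost without any 1 of basal ∆CT replicate 1 or 2, insulin ∆CT replicate 2 (edgeR adjusted p up to 0.667). The differences from IR were not called for either gene, at -0.17 ± 0.054 (edgeR adjusted p = 0.364) for *Mdm2* and -0.23 ± 0.076 (edgeR adjusted p = 0.383) for *Cdkn1a* in K1030R cells. *Ddit4* rose in ∆CT cells, by 0.54 ± 0.102 (edgeR adjusted p = 0.00724), and had a log2 fold change of 0.35 ± 0.092 (edgeR adjusted p = 0.0557) in IR cells. The call in ∆CT cells was lost without insulin ∆CT replicate 1 (edgeR adjusted p = 0.188).

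**Figure D4:**
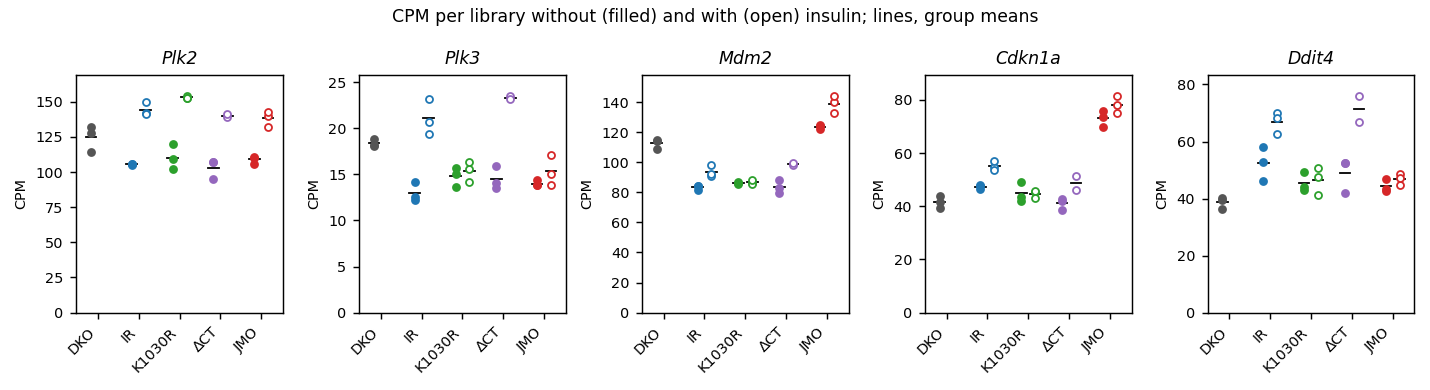
CPM (vertical axes, from 0) of the 5 members called for insulin in any line, per library without (filled) and with (open) insulin, with group means as lines and cell lines along the horizontal axes. *Plk2* is higher with insulin in all 4 receptor lines and *Plk3* in IR and ∆CT cells, where open points reach 19.4 to 23.5 CPM.

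Other genes of the pathway, fixed as a list of 31 upstream kinases, regulators, relatives, and further targets, were read beside the members, and 30 of them passed the filter. In JMO against DKO cells 10 were higher (16.8% of all genes) and 5 lower (17.4%), with a median log2 fold change of 0.02. Against the mean of the IR, ∆CT, and K1030R lines 14 were higher and 5 lower without insulin (median 0.09, 21.9% and 21.9% of all genes), and 13 were higher and 5 lower with insulin (median 0.03, 21.5% and 20.3% of all genes). At a minimum fold of 1.5 in JMO against DKO cells 3 were called (2.11% of all genes), all higher (1.38%). They were *Trp63*, *Ddit4l*, and *Psrc1*, and the last 2 are named outside the rule, after their values were seen. *Trp63*, which codes for the p53 relative p63, was the 1 gene of this list called at a minimum fold of 1.5 with the kinase domain present against absent (5.69% of all genes). *Trp63* reached 0.0568 to 0.28 CPM in DKO, 0.652 to 1.42 CPM in IR, K1030R, and ∆CT, and 0.357 to 0.867 CPM in JMO libraries, so it rests on few counts. *Btg2*, an antiproliferative gene picked out after its values were seen, lay between 21.1 and 23.5 CPM in basal IR libraries and at 125 CPM in all 3 with insulin. In JMO cells *Btg2* lay between 30.3 and 32.1 CPM without and between 43.4 and 44.5 CPM with insulin, and in K1030R libraries between 21.4 and 25.5 CPM throughout. In ∆CT cells *Btg2* lay between 19 and 20.3 CPM without and between 105 and 113 CPM with insulin.

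Genes of proliferation were read beside the members. Of 14 such genes, 1 was higher and 4 lower in JMO than in DKO cells (median log2 fold change -0.03, 16.8% and 17.4% of all genes), and 3 were higher and 5 lower than in the mean of the IR, ∆CT, and K1030R lines (median -0.07, 21.9% and 21.9% of all genes). IR cells had the lowest mRNA levels of these genes, with 2 genes higher and 11 lower than in DKO cells (median -0.27, 25.6% and 24.1% of all genes). The summed CPM of the 14 genes was 2280 to 2360 in IR, 2540 to 2630 in JMO, 2580 to 2670 in DKO, 2740 to 2910 in ∆CT, and 2780 to 2910 in K1030R libraries. Comparisons with IR cells therefore coincide with a difference in mRNA of proliferation genes, whose part in the results was not tested. Growth itself ranked otherwise in the study, fastest in IR and ∆CT cells, then K1030R cells, and slowest in DKO and JMO cells. These mRNA levels, from cells starved of serum for 6 h, are thus not a ranking of growth. The summed CPM of 5 markers of mature brown fat was 4.16 to 4.88 in JMO, 2.5 to 2.6 in DKO, and 0.551 to 2.01 in the other lines, nearly all of it *Fabp4*, while that of 8 preadipocyte markers ran from 808 to 912 in all lines, and the part of these in the results was not tested. Most of the preadipocyte sum was *Pdgfrb*, and single markers of that list differed between lines in both directions. *Ly6a* was at 42.6 to 49.2 CPM in DKO, 9.8 to 11.3 CPM in JMO, and 2.28 to 5.81 CPM in the other libraries. *Thy1* was at 5.85 to 7.56 CPM in DKO and 18.1 to 29.7 CPM in all receptor libraries, and *Cd34* at 2.94 to 5.29 CPM in DKO and JMO and 9.17 to 15.6 CPM in the other libraries. *Pdgfra* was at 158 to 169 CPM in DKO and 270 to 293 CPM in IR libraries. Summed CPM was 1.7 to 3.9 for 4 immune, 6.96 to 17.4 for 3 endothelial, 0 to 0.987 for 3 epithelial, and 1.76 to 4.75 for 3 muscle markers over the 26 libraries.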

How the data were processed

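RNA was read by sequencing in 26 libraries of 9 groups, and library totals ran from 17228982 to 24694828. The deposited table holds estimated counts per gene, which the authors made from 100-bp reverse-stranded reads, single-end, with fastp, kallisto (Ensembl 98 mouse transcriptome), and tximport. Of these expected counts 79.9% were whole numbers as deposited. Versions of these tools, and whether kallisto was set to use that strand, are not given in the sources used here. The assignment of reads to similar transcripts is an estimate, so genes that overlap on the same strand (*Bax*, *Fas*, *Rrm2b*, *Sesn1*, and *Sesn2*) are less certain.

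Counts were rounded to whole numbers. A gene entered the tests if its CPM exceeded 0.5 in 4 or more libraries, and 15402 did. TMM-scaled counts of all 26 libraries were fitted with 1 coefficient per group in edgeR 4.0.16 (R 4.3.3; robust quasi-likelihood F-tests, Benjamini-Hochberg adjustment), and contrasts were called at an adjusted p below 0.05. The standard error is the log2 fold change divided by the square root of F. The fit was checked on simulated counts. Coordinates are from GENCODE M21 (GRCm38) and promoters from RefSeq (GRCm38.p6). The receptor mutants named KD and CT in the labels were read as K1030R and ∆CT.

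The members, lists, and tests were chosen with earlier results of these data known. Values in every library are given for *Trp53*, *Cdkn1a*, *Trp53inp1*, *Mdm2*, and members called at a minimum fold of 1.5 in any pair of basal lines or any insulin comparison. Alternatives were RLE scaling, 2 other filters, DESeq2 1.42.0, limma 3.58.1 (voom, and TREAT at 1.5-fold), glmTreat at 1.5-fold, an adjusted p below 0.001, a fit of only the groups compared, a replicate block, and each library left out in turn.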

Additional observations from a re-analysis of the deposited data

Results flagged for a closer look

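The effect of insulin on *Plk3* differed between lines by a test of the difference itself. The log2 fold change with insulin in K1030R cells minus that in IR cells was -0.64 ± 0.117 (edgeR adjusted p = 0.0014), and in JMO minus IR cells it was -0.57 ± 0.117 (edgeR adjusted p = 0.0113). All 3 insulin libraries of IR cells lay above the 3 basal ones. The difference for JMO cells was no longer called when 1 of 3 libraries was left out, as given in the account of *Plk3*.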

How the results depend on the processing

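Of 195 results on single members, tested under 3604 alternative values, 3084 kept their direction and their side of the threshold, 502 kept their direction but were no longer called, 1 became called, and 17 changed sign. The 17 were all in pairs that had not been called. *Trp53* in JMO against DKO cells gave log2 fold changes of -0.0021 with RLE scaling, -0.0030 without a filter, -0.0023 with DESeq2, and -0.0005 with only the groups compared, and -0.0070 to 0.0206 with 1 library left out. *Trp53* in K1030R against DKO cells ran from -0.0021 to 0.0335 with 1 library left out. In ∆CT against DKO cells *Ccng1* was at 0.0000 without a filter, and with 1 library left out *Ccng1* ran from -0.0216 to 0.0118, *Cdkn1a* from -0.0552 to 0.0231, *Fas* from -0.0670 to 0.0038, and *Zmat3* from -0.0401 to 0.0168. A minimum fold or a stricter threshold calls fewer genes by construction. The cause of other lost calls was not tested.

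Counts of members called are given here in the order IR, K1030R, ∆CT, and JMO against DKO cells, K1030R and ∆CT against IR cells, kinase domain present against absent, JMO against the mean of the other receptor lines without and with insulin, and insulin in IR, K1030R, ∆CT, and JMO cells. With glmTreat at 1.5-fold they were 4, 2, 2, 4, 0, 0, 3, 6, 4, 0, 0, 0, and 0, and with limma TREAT 4, 2, 2, 3, 0, 0, 2, 5, 4, 0, 0, 0, and 0. At an unadjusted p below 0.05 the 6 counts of 0 became 1, 1, 1, 0, 1, and 0 with glmTreat and stayed at 0 with limma TREAT. At an adjusted p below 0.001 the count was 11 for IR, 8 for K1030R, and 14 for JMO against DKO cells, 6 for K1030R and 2 for ∆CT against IR cells, 16 for the kinase domain, and 2, 3, and 1 for insulin in IR, ∆CT, and JMO cells. With only the groups compared it was 6 for ∆CT against IR cells and 2 for insulin in ∆CT cells. With 1 library left out the counts ran from 17 to 21, 13 to 14, 13 to 15, 19 to 21, 12 to 14, 5 to 11, 23 to 25, 19 to 22, 21 to 25, 2 to 7, 1 to 1, 4 to 5, and 1 to 2. Leaving out a ∆CT library with insulin leaves 1, which is then assumed to vary like the other groups. RLE scaling, the other filters, DESeq2, and limma voom left each count within 1.5 times its value.

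Replicate numbers did not pair the samples: deviations of same-numbered libraries of different groups had a median correlation of 0.000536 over 100 pairs. With the replicate block the counts were 19, 14, 15, 22, 13, 10, 24, 22, 23, 5, 1, 5, and 2 in the order above, and 2 of the 195 single results were no longer called. Low counts limit *Perp*, *Gdf15*, *Pmaip1*, and *Dcxr*.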
